A study of Mus musculus with 2 samples.

Results

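Genes encoding 10 heat shock chaperones of the cytosol and the endoplasmic reticulum (ER) were followed in single satellite cells before and after activation. The genes were chosen by symbol from the 32285 features of the deposited matrices, and all 10 had UMIs in both libraries. A UMI (unique molecular identifier) marks 1 captured transcript. Satellite cells, the Pax7-expressing stem cells of skeletal muscle, had been sorted by fluorescence out of the tibialis anterior muscle of mice aged 8 weeks. Their genotype was Pax7 CreERT2/+ with Rosa26 mTmG/+, in which the Pax7 locus drives an inducible Cre and the Rosa26 locus carries a membrane reporter, in both groups. Quiescent satellite cells (QSCs) came from uninjured muscle, and activated satellite cells (ASCs) from muscle injured with cardiotoxin 1.5 days earlier. Each group was 1 library made from pooled mice, so the state of the cells and the library cannot be told apart, none of the differences could be checked over replicates, and no test or p-value is given. All intervals are 95% intervals and cover counting error only.

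Chaperones of the HSP70 family bind unfolded stretches of protein, J-domain proteins of the HSP40 family deliver clients and start the ATPase cycle of HSP70, and nucleotide exchange factors such as HSP110 end it. HSP90 proteins take over many clients late in folding, kinases and transcription factors among them. Each compartment has its own HSP70 and HSP90, and the cytosol of mammals has both steadily expressed and heat-inducible copies. The inducible genes are classical targets of the heat shock factor HSF1, whose binding sites are made of inverted nGAAn repeats, whereas the ER members are induced through the ER stress element when unfolded protein accumulates in the ER. Satellite cells leave quiescence with a large increase in protein synthesis.

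The members were grouped by role. The steadily expressed cytosolic group was Hspa8 (HSC70; chromosome 9, 40800984 to 40810087, GRCm38), Hsp90ab1 (HSP90 beta; chromosome 17, 45567775 to 45573271), Hsp90aa1 (HSP90 alpha; chromosome 12, 110690605 to 110702728) and Dnaja1 (an HSP40; chromosome 4, 40722150 to 40737149). The inducible group was the neighbouring genes Hspa1a (chromosome 17, 34969190 to 34972156) and Hspa1b (chromosome 17, 34956436 to 34959238), which encode inducible HSP70, with Dnajb1 (an HSP40; chromosome 8, 83608193 to 83612653) and Hsph1 (HSP110; chromosome 5, 149614287 to 149636376). The ER group was Hspa5 (BiP; chromosome 2, 34771970 to 34777547) and Hsp90b1 (GRP94; chromosome 10, 86690209 to 86705509). Exons of Hspa1a and Dnaja1 overlapped exons of a counted gene on the opposite strand, and exons of Hsp90b1 those of a counted transcript on the same strand, so their counts are less certain. The last 300 bases of the Hspa8 transcript had near copies in 7 annotated pseudogenes, none of them a counted feature. The transcripts of Hspa1a and Hspa1b were 84.3% identical over their alignment, and their last 300 bases, where 3' libraries read, had no near copy in each other at 95% identity over 90 bases.

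Promoters are shown for the inducible genes whose window held a heat shock motif and for both ER genes, so that the letters of the stress elements can be seen. RefSeq promoter sequences (GRCm38.p6, from 250 bases before to 50 after the start of transcription) were found for 7 of the 10 members, and Hsp90aa1, Hsp90ab1 and Hspa8 had no entry. Capitals mark, on either strand, the heat shock motif GAANNTTC or TTCNNGAA, a pair of inverted repeats, in the first 3 windows, and the ER stress element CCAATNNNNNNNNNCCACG in the last 2.
Hspa1a, chr17:34972107-34972406, minus strand: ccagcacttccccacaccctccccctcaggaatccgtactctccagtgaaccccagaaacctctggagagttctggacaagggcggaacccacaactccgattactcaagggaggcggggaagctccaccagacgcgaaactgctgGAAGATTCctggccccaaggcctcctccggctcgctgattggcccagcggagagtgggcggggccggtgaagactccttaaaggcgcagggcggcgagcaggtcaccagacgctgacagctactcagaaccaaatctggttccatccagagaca
Hspa1b, chr17:34959189-34959488, minus strand: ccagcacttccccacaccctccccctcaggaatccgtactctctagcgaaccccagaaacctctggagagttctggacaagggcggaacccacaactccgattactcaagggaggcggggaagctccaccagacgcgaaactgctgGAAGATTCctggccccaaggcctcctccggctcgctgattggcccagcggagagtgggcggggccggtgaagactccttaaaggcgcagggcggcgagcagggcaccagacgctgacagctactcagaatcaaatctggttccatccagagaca
Hsph1, chr5:149636287-149636586, minus strand: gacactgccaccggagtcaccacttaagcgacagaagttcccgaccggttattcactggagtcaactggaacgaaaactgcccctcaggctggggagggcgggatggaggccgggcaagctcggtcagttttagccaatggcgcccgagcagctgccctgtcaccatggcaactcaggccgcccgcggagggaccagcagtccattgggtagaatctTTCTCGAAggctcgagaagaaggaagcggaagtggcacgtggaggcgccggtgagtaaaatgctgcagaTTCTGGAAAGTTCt
Hspa5, chr2:34771840-34772139, plus strand: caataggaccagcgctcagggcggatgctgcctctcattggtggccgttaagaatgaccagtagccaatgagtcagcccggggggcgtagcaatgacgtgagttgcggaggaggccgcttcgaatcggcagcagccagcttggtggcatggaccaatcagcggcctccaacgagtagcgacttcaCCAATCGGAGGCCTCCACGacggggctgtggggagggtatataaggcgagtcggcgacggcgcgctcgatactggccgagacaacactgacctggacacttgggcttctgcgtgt
Hsp90b1, chr10:86705395-86705694, minus strand: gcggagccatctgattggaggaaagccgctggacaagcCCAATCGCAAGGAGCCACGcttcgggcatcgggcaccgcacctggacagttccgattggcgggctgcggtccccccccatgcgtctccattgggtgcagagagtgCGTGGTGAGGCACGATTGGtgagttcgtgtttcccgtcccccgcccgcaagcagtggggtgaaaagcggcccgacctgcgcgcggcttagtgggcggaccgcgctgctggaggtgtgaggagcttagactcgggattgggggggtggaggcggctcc

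The letters GAANNTTC lay in a window of each of Dnaja1, Hspa1a, Hspa1b and Hsph1, and in 7.86% of the 32851 promoter windows of the table. Dnaja1 and Hsph1 had alternative windows. A member is counted if any of its windows matched, while the shares of all windows count each window by itself. The window of Dnajb1, the other inducible gene, held no match to a heat shock motif or the ER stress element and is not shown. TTCNNGAA lay in Hsph1 alone among the 7, and in 8.52% of all windows. Hsph1 also held the longer TTCNNGAANNTTC, which overlaps both shorter motifs and lay in 0.320% of all windows. Its other-strand form GAANNTTCNNGAA was in none of the 7 and in 0.310% of all windows. The ER stress element lay in the windows of both ER genes, with a single match in Hspa5 and a pair in Hsp90b1, and in 39 windows of the table (0.119%). It contains the letters CCAAT, which on either strand lay in a window of each of the 7 members and in 37.4% of all windows. The Dnaja1 window with GAANNTTC held no CCAAT. The windows of Hspa1a and Hspa1b were identical at 296 of 300 positions and differed at C44T, T47C, T249G and C276T, counted from 1 at the 5′ end of the window with the Hspa1a base first. A match is a description of letters, and binding was not measured.

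Barcodes, the droplet labels that stand for cells, entered the analysis if they had 500 genes or more with a UMI and no more than 10% of UMIs from mitochondrial genes. The filter left 516 QSC barcodes with 1162091 UMIs (median 2155 a barcode) and 1468 ASC barcodes with 8895815 UMIs (median 3502), so that a single UMI weighed more in the QSC library. The libraries shared 4 barcode sequences. Barcodes with at least 5% of UMIs from 10 genes of adult fibres (among them Acta1, Ckm and Myh4) are called fibre-high, and made up 104 of the QSC and 948 of the ASC barcodes. Other-marker barcodes (37 and 93) were not fibre-high and had at least 1% of UMIs from markers of immune, fibroblast, endothelial, mural or glial cells. The share was taken for each cell type, with a UMI in at least 3 of its markers, or 2 for mural and glial cells. The remaining 375 QSC and 427 ASC barcodes are called fibre-low. In them the satellite cell gene Pax7 stood at 214 CPM (UMI counts scaled to 1e+06 per class) in QSCs and 28.8 CPM in ASCs, and Myod1, a gene of activation, at 147 and 413 CPM. In fibre-high barcodes Pax7 stood at 9.32 and 1.97 CPM and the fibre myosin gene Myh4 at 424 and 869 CPM, against the label of sorted stem cells. Myod1 stood at 14.0 CPM in fibre-high QSC and 169 CPM in fibre-high ASC barcodes. Of the other-type markers, immune genes summed to 140 and 238 CPM in the fibre-low QSC and ASC barcodes, fibroblast genes to 1022 and 474 CPM (Pdgfra at 0 in ASCs), endothelial genes to 79.4 and 23.6 CPM (Cldn5 at 0 in QSCs), mural genes to 284 and 1182 CPM, glial genes to 1.17 and 0.754 CPM, and haemoglobin genes to 131 and 1675 CPM. The erythroid signal included 2 ASC barcodes with at least 20% haemoglobin UMIs, and without them every member kept its direction. The part of these other transcripts in the results was not tested.

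ASC fibre-low barcodes were divided further, since the gene Myog and the cell cycle mark different fates of activated cells. Barcodes with at least 0.1% of UMIs from 17 cell cycle genes are called cycling (153 barcodes, median 21733 UMIs, 61.0% of the UMIs of fibre-low ASCs). Of the others, those with at least 0.05% Myog UMIs are called Myog-high (73 barcodes, median 10442 UMIs) and the rest Myog-low (201 barcodes, median 4852 UMIs). Myog, the transcription factor gene of commitment to differentiation, stood at 5011 CPM in the Myog-high class. Only 15 QSC fibre-low barcodes were cycling and 1 was Myog-high. These classes are ranges of a score and not cell types. Near the borders lay 23 of the 427 fibre-low ASC barcodes for the cell cycle (0.08 to 0.12%), 8 for Myog (0.04 to 0.06%) and 36 of all 1468 ASC barcodes for the fibre genes (4 to 6%).

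**Figure D1:**
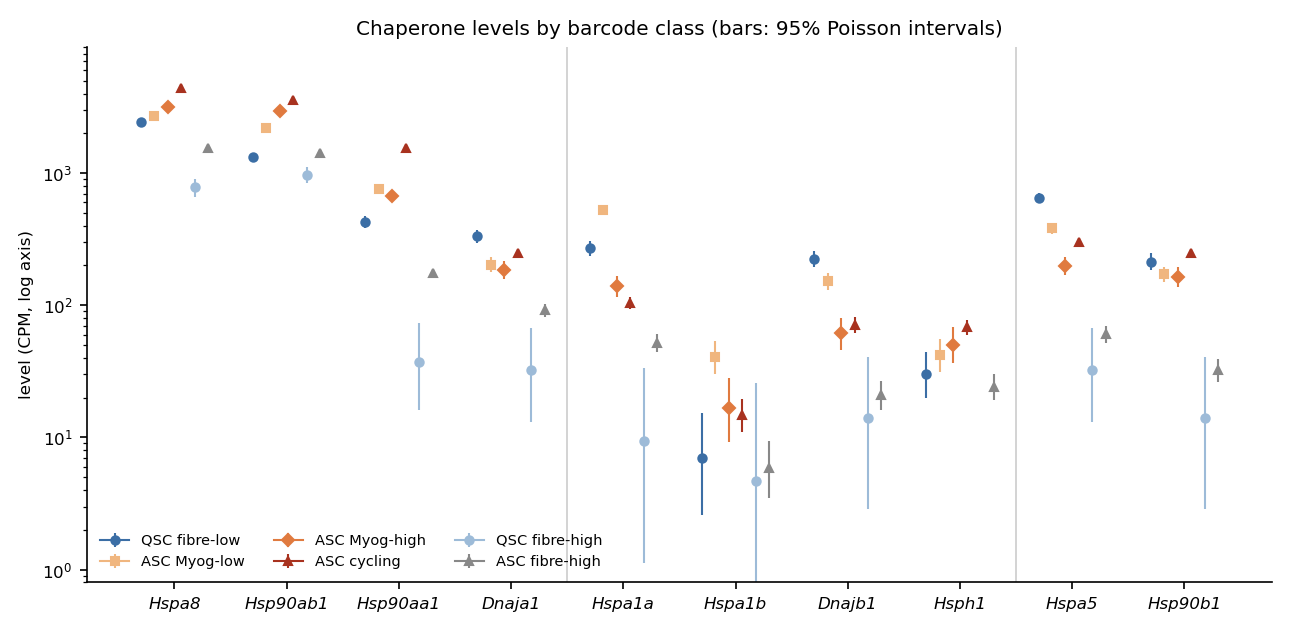
Level of each chaperone gene in CPM (log axis) in the fibre-low QSC barcodes, the 3 fibre-low ASC classes and the fibre-high barcodes of both libraries, with 95% Poisson intervals as bars and grey lines between the steadily expressed cytosolic, inducible and ER groups. Fibre-high barcodes sat lowest for most genes, Hspa1a was highest in Myog-low ASCs at 525 CPM, and Hspa5 was highest in fibre-low QSCs at 651 CPM. Hsph1 had 0 UMIs in fibre-high QSCs and is not drawn there.

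The first comparison asked how the chaperones differed between the whole libraries. The cytosolic HSP90 genes Hsp90aa1 and Hsp90ab1 and the HSP70 gene Hspa8 were higher in ASCs, while Hspa5, Dnajb1, Dnaja1, Hspa1a and the ER gene Hsp90b1 were higher in QSCs. Of the 10 members, 2 (Hsp90aa1 and Hspa1b) were at least 2-fold higher in ASCs, where 13.6% of the 7353 features with a mean of at least 10 CPM were, and 2 (Dnajb1 and Hspa5) at least 2-fold lower, where 22.6% were. Their median log2 ratio was 0.14 and that of the 7353 features -0.12. TMM scaling would add 0.31 to each log2 ratio, which would turn Hsp90b1 to 0.048, bring Hspa5 to -0.90, short of 2-fold, and take Hsp90ab1 (1.30) and Hsph1 (1.14) past 2-fold in whole libraries. Under the stricter 1% limit on mitochondrial UMIs that the study used, which left 86 QSC barcodes, 85 of them fibre-high, Hspa5, Hsp90b1, Dnaja1, Dnajb1 and Hspa1a were all higher in ASCs. The sums of the 3 groups went apart, with log2 ratios of 0.72 (0.68 to 0.77) for the steadily expressed cytosolic group, -0.55 (-0.69 to -0.41) for the inducible group and -0.90 (-1.01 to -0.79) for the ER group.

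Hsp90aa1 stood at 342 CPM in QSCs (398 UMIs) and 831 CPM in ASCs (7388 UMIs), a log2 ratio of 1.28 (1.13 to 1.43). Hsp90ab1 stood at 1218 and 2427 CPM, a log2 ratio of 0.99 (0.92 to 1.07). Hspa8 stood at 2064 and 3013 CPM, a log2 ratio of 0.55 (0.49 to 0.61). These 3 genes, which fold and mature newly made protein in the cytosol, were higher in ASCs, and their HSP40 partner Dnaja1 was lower. Dnaja1 stood at 278 CPM in QSCs and 180 CPM in ASCs, a log2 ratio of -0.63 (-0.80 to -0.45).

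Among the inducible genes, Hspa1a stood at 228 CPM in QSCs (265 UMIs) and 168 CPM in ASCs (1496 UMIs), a log2 ratio of -0.44 (-0.63 to -0.25). Dnajb1 stood at 176 and 65.4 CPM, a log2 ratio of -1.42 (-1.66 to -1.19). The other pair of inducible genes lay the other way. Hspa1b had 8 UMIs in QSCs (6.88 CPM) and 163 UMIs in ASCs (18.3 CPM), a log2 ratio of 1.41 (0.40 to 2.65). Hsph1 stood at 25.0 CPM in QSCs (29 UMIs) and 44.5 CPM in ASCs, a log2 ratio of 0.83 (0.29 to 1.43). Of the ER pair, Hspa5 stood at 527 CPM in QSCs and 228 CPM in ASCs, a log2 ratio of -1.21 (-1.34 to -1.07). Hsp90b1 differed less, with 183 and 153 CPM and a log2 ratio of -0.26 (-0.47 to -0.05).

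Within fibre-low barcodes, the class with the highest Pax7 and Myod1 levels in each library, the contrast in cytosolic HSP90 was wider. Of the members, 3 (Hsp90aa1, Hsp90ab1 and Hspa1b) were at least 2-fold higher in ASCs (background 16.8% of 7359 features) and 2 (Dnajb1 and Hspa5) at least 2-fold lower (background 23.3%). The median log2 ratio was 0.33 for the members and -0.13 for the 7359 features. Hsp90aa1 stood at 425 CPM in QSCs and 1233 CPM in ASCs, a log2 ratio of 1.54 (1.39 to 1.69). Hsp90ab1 stood at 1322 and 3151 CPM, a log2 ratio of 1.25 (1.17 to 1.34). Hspa8 stood at 2456 and 3826 CPM, a log2 ratio of 0.64 (0.58 to 0.71). On the other side lay Hspa5, at 651 CPM in QSCs and 304 CPM in ASCs, with a log2 ratio of -1.10 (-1.24 to -0.96). It fell short of 2-fold with TMM scaling (-0.79) and with equal weight for each barcode (-0.87). Dnajb1 stood at 225 and 88.4 CPM, a log2 ratio of -1.35 (-1.59 to -1.10), or -0.80 with equal weight for each barcode. Its relative Dnaja1 stood at 333 and 228 CPM, a log2 ratio of -0.55 (-0.73 to -0.35). Hsp90b1 was at 214 CPM in QSCs and 217 CPM in ASCs, and its log2 ratio of 0.02 had an interval from -0.20 to 0.26. Hsph1 stood at 30.3 and 59.2 CPM, a log2 ratio of 0.96 (0.39 to 1.60). Hspa1b had 6 UMIs in QSCs (7.0 CPM) and stood at 21.1 CPM in ASCs, a log2 ratio of 1.59 (0.43 to 3.07). Hspa1a stood at 271 CPM in QSCs and 208 CPM in ASCs, a log2 ratio of -0.38 (-0.59 to -0.17), but the direction turned to 0.60 when each barcode had equal weight in place of each UMI.

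**Figure D2:**
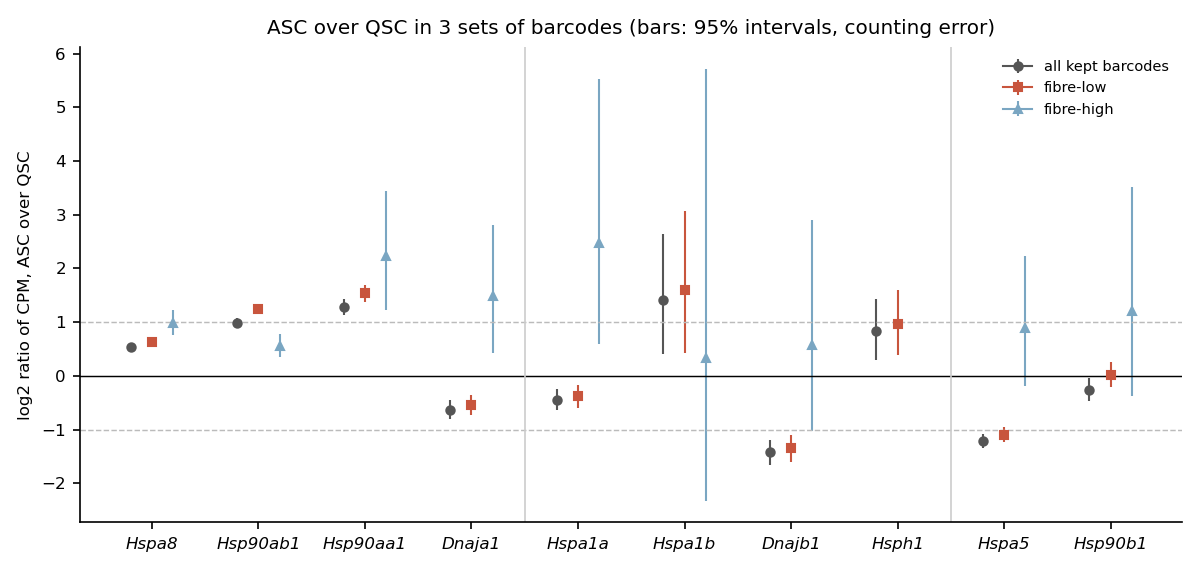
Log2 ratio of ASC over QSC CPM for each chaperone in all kept, fibre-low and fibre-high barcodes, with 95% intervals for counting error as bars, dashed lines at 2-fold and grey lines between the role groups. In fibre-low barcodes Hsp90aa1 lay at 1.54 and Dnajb1 at -1.35, while in fibre-high barcodes every drawn member lay above 0. The fibre-high intervals of Hspa1b, Dnajb1, Hspa5 and Hsp90b1 held 0. Hsph1 had 0 UMIs in fibre-high QSCs and is not drawn there.

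The fibre-high barcodes held less of most chaperones than fibre-low barcodes of the same library. In QSCs, 8 of the 9 members that passed the limit of 10 CPM were at least 2-fold lower in fibre-high than in fibre-low barcodes (background 42.3% of 6656 features). Among them was Hsph1, with 0 fibre-high and 26 fibre-low UMIs, at least 2.17-fold lower against a floor of 3 UMIs in the class, while Hspa1b, with 1 and 6 UMIs, did not pass. In ASCs all 10 members were at least 2-fold lower (background 37.8% of 6354 features). None was at least 2-fold higher (background 21.1% in QSCs and 17.6% in ASCs). The log2 ratio of fibre-high over fibre-low was -4.32 (-5.64 to -3.27) for Hspa5 in QSCs, on 7 fibre-high UMIs, and -2.33 (-2.55 to -2.11) in ASCs. Hsp90ab1 differed least, with -0.45 (-0.68 to -0.24) in QSCs and -1.14 (-1.19 to -1.10) in ASCs. Between the libraries, 4 members were at least 2-fold higher in fibre-high ASCs than in fibre-high QSCs (background 18.5% of 5092 features) and none was at least 2-fold lower (background 12.2%). Hspa8 stood at 779 CPM in QSCs and 1550 CPM in ASCs, a log2 ratio of 0.99 (0.77 to 1.22). Hsp90aa1 had 8 UMIs in QSCs (37.3 CPM) and stood at 174 CPM in ASCs, a log2 ratio of 2.22 (1.24 to 3.44). Dnaja1 had 7 UMIs in QSCs (32.6 CPM) and stood at 91.4 CPM in ASCs, a log2 ratio of 1.49 (0.42 to 2.81). The order of the libraries for Dnaja1 and Hspa1a was thus opposite to that in fibre-low barcodes. The 2 Hspa1a UMIs of fibre-high QSCs (9.32 CPM) against 51.8 CPM in ASCs gave a log2 ratio of 2.47 (0.60 to 5.53), and the 3 UMIs of Hsp90b1 (14.0 CPM) against 32.4 CPM one of 1.21 (-0.38 to 3.52). Hsph1 had 0 UMIs in fibre-high QSCs and 74 in ASCs (24.2 CPM), at least 1.73-fold higher against a floor of 3 UMIs in the class.

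The other-marker barcodes, 37 in QSCs and 93 in ASCs, held cells of unlike kinds, with fibroblast genes such as Dcn at 6567 CPM in QSCs and 79.6 CPM in ASCs and the immune gene Ptprc at 44.1 and 187 CPM. Of the members, 3 (Hsp90aa1, Hspa8 and Hspa1b) were at least 2-fold higher in ASCs (background 13.5% of 7872 features) and 1 (Hsph1) at least 2-fold lower (background 33.3%). Hspa1b had 1 and Hsph1 3 QSC UMIs there. Hspa8 stood at 1410 CPM in QSCs and 3290 CPM in ASCs, a log2 ratio of 1.22 (0.96 to 1.49), and Hspa1a at 342 and 437 CPM, a log2 ratio of 0.35 (-0.19 to 0.94). The kinds of cells and the libraries cannot be told apart there.

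Activated cells did not have a single chaperone level. The steadily expressed cytosolic group was highest in cycling ASCs, at 9796 CPM summed, against 6992 CPM in Myog-high, 5858 CPM in Myog-low ASCs and 4535 CPM in fibre-low QSCs. Hsp90aa1 stood at 1561 CPM in cycling, 673 CPM in Myog-high and 754 CPM in Myog-low ASCs. Hsp90ab1 stood at 3573, 2943 and 2186 CPM in the same order. Hspa8 stood at 4414, 3189 and 2716 CPM. All 3 genes were above their fibre-low QSC level in each ASC class, with log2 ratios from 0.15 (0.07 to 0.22) for Hspa8 in Myog-low to 1.88 (1.72 to 2.03) for Hsp90aa1 in cycling barcodes. Dnaja1 was below it in each class, at 248, 186 and 203 CPM. Against fibre-low QSCs, 4 members were at least 2-fold higher and 3 at least 2-fold lower in cycling ASCs (background 21.0% and 26.7% of 7335 features). The counts were 2 and 2 in Myog-high ASCs (13.9% and 22.6% of 7245), and 1 and 0 in Myog-low ASCs (8.61% and 18.2% of 7256). Hspa1b, with 6 UMIs in fibre-low QSCs, was among the higher members in each class, and the only one in Myog-low ASCs. Its log2 ratio had an interval that held 0 in cycling (-0.14 to 2.60) and in Myog-high ASCs (-0.21 to 2.93). Cycling barcodes also had the most UMIs, so a comparison within a shared range of depth is given below.

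Among the fibre-low classes, the inducible HSP70 genes were highest in Myog-low ASCs. Other-marker ASCs held Hspa1a at 437 CPM (383 to 496) and Hspa1b at 61.1 CPM (42.0 to 85.8). Hspa1a, the main inducible HSP70, stood at 525 CPM in Myog-low ASCs (648 UMIs), 139 CPM in Myog-high ASCs and 104 CPM in cycling ASCs. The level in fibre-low QSCs, 271 CPM, lay between these. Against QSCs, the log2 ratio was 0.95 (0.74 to 1.18) in Myog-low, -0.96 (-1.29 to -0.63) in Myog-high and -1.37 (-1.62 to -1.13) in cycling barcodes. Hspa1b stood at 40.5, 16.8 and 14.8 CPM in the same order, the intervals of the last 2 overlapping. Dnajb1 was also highest in Myog-low ASCs, at 152, 61.3 and 71.1 CPM, below its 225 CPM of fibre-low QSCs in each class. Hsph1 was highest in cycling ASCs, at 42.1, 50.5 and 68.0 CPM, the intervals of the last 2 overlapping.

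Cycling and Myog-low ASCs were also compared directly, within 1 library. Of the members, 1 (Hsp90aa1) was at least 2-fold higher in cycling barcodes (background 14.1% of 6816 features) and 3 (Hspa1a, Hspa1b and Dnajb1) at least 2-fold lower (background 13.0%). The log2 ratio of cycling over Myog-low was 1.05 (0.95 to 1.15) for Hsp90aa1, and -2.33 (-2.52 to -2.14) for Hspa1a. In barcodes of 5000 to 20000 UMIs, 53 cycling and 91 Myog-low, Hspa1a stood at 89.9 and 420 CPM and its log2 ratio was -2.22 (-2.66 to -1.81). In the same barcodes that of Hsp90aa1 was 0.93 (0.77 to 1.10) and that of Dnajb1 was -0.63 (-1.12 to -0.15), both less than 2-fold. No member was at least 2-fold higher in this range, within which depth was not equalised. Hspa8 had 0.34 (0.26 to 0.43) there against 0.70 over all depths, and Hsp90ab1 0.50 (0.40 to 0.60) against 0.71. Hspa1b stayed past 2-fold, with -2.36 (-3.89 to -1.09) on 6 cycling UMIs. Hsph1 had 0.27 (-0.46 to 1.01) in this range, against 0.69 over all depths. Of the 10 members, 5 moved past the counting interval of their value over all depths. Myog-high over Myog-low barcodes gave none of the members at least 2-fold higher (background 8.08% of 6749 features) and 3 at least 2-fold lower (background 10.2%), with log2 ratios of -1.91 (-2.21 to -1.62) for Hspa1a, -1.27 (-2.24 to -0.39) for Hspa1b and -1.31 (-1.79 to -0.86) for Dnajb1.

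The ER genes differed from each other in their order. Hspa5 stood at 383 CPM in Myog-low, 199 CPM in Myog-high and 301 CPM in cycling ASCs, all below the 651 CPM of fibre-low QSCs, with log2 ratios of -0.77 (-0.95 to -0.59), -1.71 (-1.97 to -1.45) and -1.11 (-1.27 to -0.96). Hsp90b1 stood at 172, 165 and 248 CPM, against 214 CPM in fibre-low QSCs. Its log2 ratio was -0.32 (-0.61 to -0.02) in Myog-low and -0.38 (-0.71 to -0.05) in Myog-high barcodes. The interval of its log2 ratio in cycling barcodes, 0.22, ran from -0.02 to 0.46.

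**Figure D3:**
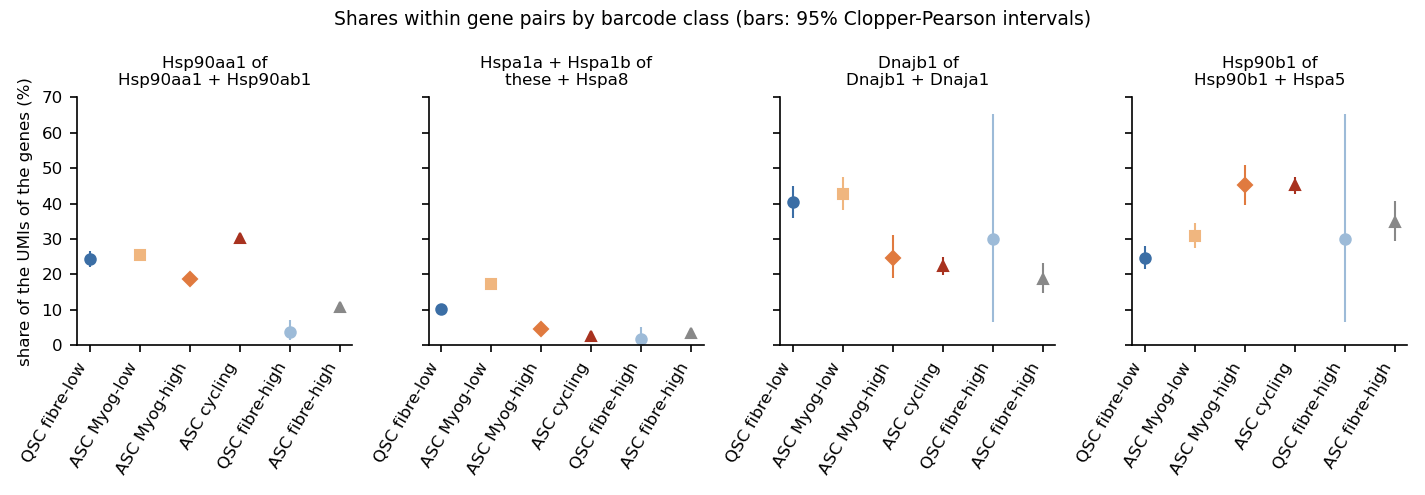
Share of UMIs (%) that 1 gene took within a pair or group of related chaperones, by class of barcode, with 95% Clopper-Pearson intervals as bars. Inducible HSP70 took 17.2% of HSP70 UMIs in Myog-low and 2.63% in cycling ASCs, and Hsp90b1 took 45.2% of the ER pair in cycling ASCs against 24.7% in fibre-low QSCs.

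Shares within a pair of related genes do not depend on how a library is scaled, and a 3' UMI stands for 1 transcript whatever its length. Hspa1a and Hspa1b together made up 10.2% (8.97 to 11.5) of the UMIs of these genes and Hspa8 in fibre-low QSCs, 17.2% (16.1 to 18.4) in Myog-low ASCs, 4.67% (3.92 to 5.52) in Myog-high ASCs and 2.63% (2.38 to 2.90) in cycling ASCs. The Myog-low and the cycling ASCs of 1 library thus lay on either side of the QSCs in their balance of inducible and steady HSP70. Hspa1a took 97.5% (94.6 to 99.1) of the Hspa1a and Hspa1b UMIs in fibre-low QSCs and 90.8% (89.0 to 92.3) in fibre-low ASCs. Hsp90aa1 took 24.3% (22.2 to 26.6) of the cytosolic HSP90 UMIs in fibre-low QSCs, 25.6% (24.2 to 27.1) in Myog-low ASCs, 30.4% (29.7 to 31.1) in cycling ASCs and 18.6% (17.2 to 20) in Myog-high ASCs. In fibre-high barcodes it took 3.72% (1.62 to 7.20) in QSCs and 10.9% (10.0 to 11.8) in ASCs, below its share in each fibre-low class named here. Dnajb1 took 40.4% (35.9 to 44.9) of the Dnajb1 and Dnaja1 UMIs in fibre-low QSCs and 42.8% (38.1 to 47.6) in Myog-low ASCs, but 22.3% (19.8 to 24.9) in cycling ASCs. Hsp90b1 took 24.7% (21.6 to 28.0) of the ER pair in fibre-low QSCs and 41.7% (39.8 to 43.5) in fibre-low ASCs, with 30.9% (27.5 to 34.6) in Myog-low and 45.2% (42.9 to 47.5) in cycling barcodes.

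Early-response genes, such as Fos, Jun and Egr1, are transcribed soon after many kinds of stimuli. All samples had been digested with dispase and collagenase before sorting, and its part in the levels was not tested. Fibre-low barcodes were grouped by the share of UMIs from 12 of these genes, which had a median of 3.16% in QSCs and 0.374% in ASCs. In ASCs, Hspa1a stood at 83.4 CPM in the 238 barcodes under 0.5%, 196 CPM in 96 barcodes of 0.5 to 1%, 739 CPM in 48 of 1 to 2%, 1764 CPM in 37 of 2 to 4% and 2756 CPM in 8 of at least 4%. In QSCs it stood at 154 CPM in the 55 barcodes of 1 to 2%, 235 CPM in 195 of 2 to 4% and 444 CPM in 105 of at least 4%, with 0 UMIs in the 11 barcodes under 0.5% and 1 UMI in the 9 of 0.5 to 1%. Hspa1a was thus higher where early-response genes were, in both libraries, and from a share of 1% upward it was higher in ASCs than in QSCs of the same range. In the lower ranges, under 0.5% and 0.5 to 1%, the QSC intervals reached 183 and 432 CPM and held the ASC levels.

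In the range of 2 to 4%, the log2 ratio of ASCs over QSCs was 2.91 (2.59 to 3.24) for Hspa1a and 0.87 (0.44 to 1.30) for Dnajb1. For Hspa1b it was 4.81 (2.78 to 7.94), on 2 QSC UMIs. There, 3 members (Hspa1a, Hspa1b and Hsph1) were at least 2-fold higher in ASCs (background 11.8% of 6993 features) and 1, Hsp90b1, at least 2-fold lower (background 21.2%). Hsph1 had 15 UMIs in QSCs, 33.0 CPM (18.4 to 54.3), and 13 UMIs in ASCs, 72.6 CPM (38.6 to 124), with overlapping intervals. In the range of 1 to 2%, 2 members, Hspa1a and Hspa1b, were at least 2-fold higher (background 12.7% of 7419 features) and none lower (23.6%), with a log2 ratio of 2.27 (1.62 to 2.99) for Hspa1a. The order of the libraries at 2 to 4% was therefore opposite to that over all fibre-low barcodes for Hspa1a and Dnajb1. At 4% and above, Dnajb1 stood at 259 CPM in QSCs and 251 CPM in ASCs, the latter on 7 UMIs. For Hspa5 in the range of 2 to 4% the levels were 745 CPM in QSCs and 731 CPM in ASCs, with a log2 ratio of -0.03 (-0.33 to 0.27), against -1.10 over all fibre-low barcodes. For Hsp90aa1 it was 0.92 (0.59 to 1.24) and for Hsp90ab1 0.43 (0.23 to 0.63), below the 1.54 and 1.25 over all fibre-low barcodes. Depth moved with these ranges, from a median of 14574 UMIs under 0.5% to 4075 at 2 to 4% in ASCs, and at 2 to 4% the QSC median was 2284. The part of depth was not tested across these ranges.

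Within ASCs, barcodes of 2 to 4% were compared with those under 0.5%. Of the members, 4 (Hspa1a, Hspa1b, Dnajb1 and Hspa5) were at least 2-fold higher (background 18.0% of 6749 features) and 1, Hsp90b1, at least 2-fold lower (background 21.8%). The log2 ratio was 4.40 (4.18 to 4.63) for Hspa1a, 2.99 (2.61 to 3.37) for Dnajb1 and 1.46 (1.18 to 1.72) for Hspa5. Hsp90ab1 lay the other way, at 3441 CPM under 0.5% and 1792 CPM at 2 to 4%, a log2 ratio of -0.94 (-1.10 to -0.78). Within QSCs, barcodes of at least 4% had more Hspa1a than those of 1 to 2%, with a log2 ratio of 1.53 (0.85 to 2.28), and Hspa1a was the 1 member at least 2-fold higher (background 11.6% of 7423 features). None was at least 2-fold lower (background 15.6%). After each barcode was thinned to 1200 UMIs, the summed inducible genes correlated with the early-response genes over 421 fibre-low ASC barcodes with a Spearman rho of 0.40 and a Pearson r of 0.52, and over 370 QSC barcodes with 0.09 and 0.16. The steadily expressed cytosolic group correlated with the cell cycle genes in ASCs with a rho of 0.40 and an r of 0.34, but within cycling ASCs, a class itself cut on these genes, with 0.02 and 0.002, and within Myog-low ASCs with 0.13 and 0.09. The inducible group had a rho of 0.47 and an r of 0.47 with the early-response genes within Myog-low ASCs. Within cycling ASCs its rho was 0.20 and its r 0.72. Over all fibre-low ASCs the ER group had a rho of 0.09 and an r of 0.14 with the early-response genes, and within Myog-low ASCs 0.17 and 0.19. Barcodes of a library share its depth and preparation, and these values are descriptions.

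**Figure D4:**
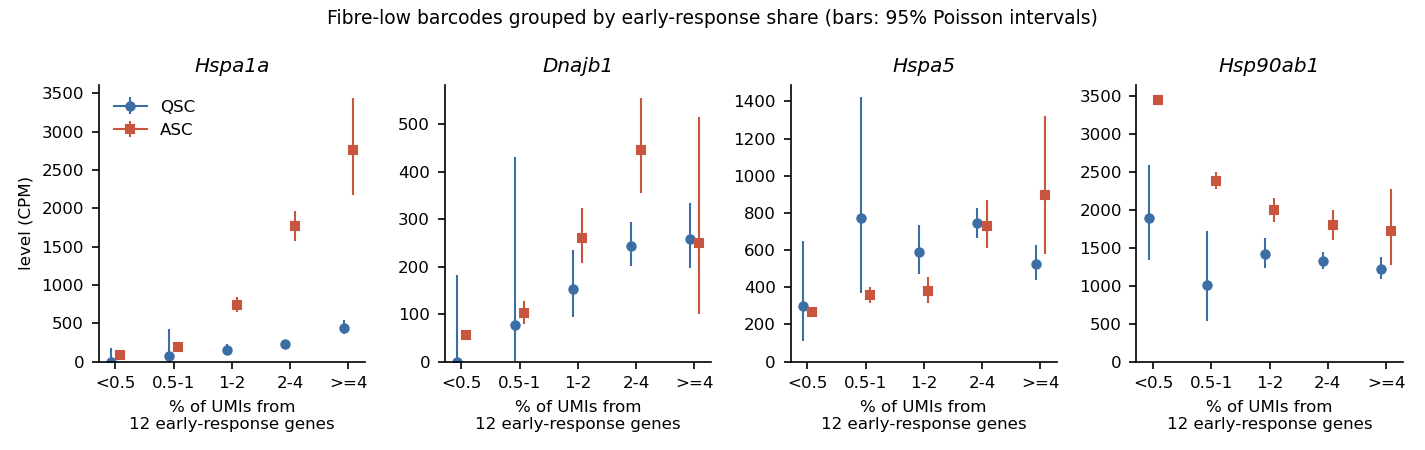
Level in CPM of Hspa1a, Dnajb1, Hspa5 and Hsp90ab1 in fibre-low QSC and ASC barcodes grouped by the share of UMIs from 12 early-response genes (%), with 95% Poisson intervals as bars. Hspa1a in ASCs went from 83.4 CPM in the lowest to 2756 CPM in the highest range, while Hsp90ab1 in ASCs went from 3441 to 1718 CPM.

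The spread over single barcodes differed among the members. With each barcode thinned to 1200 UMIs (5 and 6 shallower fibre-low barcodes left out), 16.5% (12.9 to 20.7) of fibre-low QSC and 16.2% (12.8 to 20) of fibre-low ASC barcodes had a UMI of Hspa1a. Without thinning the shares were 24.3% and 36.1%. Within ASCs the share was 25.6% (19.7 to 32.3) in Myog-low and 6.0% (2.78 to 11.1) in cycling barcodes. Fibre-high barcodes are given as a comparison for free RNA (median depth 1635 and 2666.5 UMIs, against 2221 and 8135 in fibre-low barcodes). In them Hspa1a was found in 0 of 90 QSC barcodes and in 2.09% (1.24 to 3.28) of ASC barcodes. A floor of 3 barcodes would be a share of 3.33% in QSCs, which is not a Clopper-Pearson limit. Without thinning Hspa1a was found in 2 of 104 fibre-high QSC barcodes. The variance of the thinned Hspa1a counts was 2.85 times the mean in fibre-low QSCs and 5.14 times in ASCs, against 1.06 and 1.65 times for Hsp90aa1. The 10 fibre-low barcodes with the most Hspa1a held 41.8% of its UMIs in QSCs and 27.0% in ASCs, while the 10 deepest barcodes held 5.01% and 8.24% of all UMIs. Hspa1a made up at least 0.1% of UMIs in 28 of 375 fibre-low QSC barcodes and 44 of 427 ASC barcodes. Of the latter, 38 were Myog-low and 2 were cycling.

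The other members had a variance of 0.967 to 1.76 times the mean in fibre-low QSCs and 1.08 to 1.87 times in ASCs. Thinned shares for Hsp90aa1 were 37.3% (32.4 to 42.4) in fibre-low QSCs and 61.3% (56.4 to 66.0) in ASCs, against 5.56% and 15.3% in fibre-high barcodes. For Hspa5 they were 49.2% (44.0 to 54.4) and 27.6% (23.3 to 32.1), against 7.78% and 6.74%. For Dnajb1 they were 19.2% (15.3 to 23.6) and 11.2% (8.32 to 14.6), against 1.11% and 2.44%. Hsp90ab1 and Hspa8 were found in 68.9% and 61.1% of fibre-high QSC barcodes and in 98.0% and 97.3% of cycling ASC barcodes. Hspa1a was found more often with 2 of the other inducible genes in ASCs. In thinned fibre-low ASCs, 22.1% (12.9 to 33.8) of the 68 barcodes with Hspa1a had Dnajb1, against 9.07% (6.28 to 12.6) of the 353 without, and for Hspa1b the shares were 13.2% (6.23 to 23.6) and 1.42% (0.461 to 3.27). For Hsph1 they were 7.35% (2.43 to 16.3) and 4.25% (2.40 to 6.91), with overlapping intervals. In QSCs the shares with Dnajb1, 21.3% (11.9 to 33.7) of 61 and 18.8% (14.6 to 23.6) of 309, had overlapping intervals.

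The wider chaperone network was read from lists of other genes, over the same whole-library comparison and with the same backgrounds of 13.6% and 22.6%. All 8 genes of the TRiC chaperonin, the ring that folds actin and tubulin, passed the limit of 10 CPM. At least 2-fold higher in ASCs were 5, with none lower and a median log2 ratio of 1.06, and in fibre-low barcodes 7 were. Cct2 had the highest log2 ratio, 1.99 (1.68 to 2.32), and Cct5 the lowest, 0.75 (0.56 to 0.94), with Cct6a at 1.26 and Cct7 at 0.76. The other 3 past 2-fold, named after their values were seen, were Tcp1 (1.25), Cct8 (1.07) and Cct3 (1.06). Of 8 mitochondrial chaperones, 2 were higher, Hspe1 with 1.88 (1.69 to 2.06) and Hspd1 with 1.28 (1.08 to 1.49), which form the chaperonin of the matrix. The lowest were Trap1 with -0.26 and Lonp1 with 0.10, and the median was 0.52. None of the 6 prefoldin genes, which hand clients to TRiC, was past 2-fold, with a median of 0.46 and a range from -0.46 for Pfdn5 and 0.11 for Pfdn1 to 0.60 for Pfdn6 and 0.94 for Pfdn4.

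Of 13 HSP90 cochaperones, 1 was higher, Ppid with 1.09 (0.67 to 1.53), and 1 lower, Fkbp5 with -2.31 (-2.71 to -1.90), an immunophilin that binds HSP90. Next to them lay Ptges3, the p23 cochaperone, with 0.96 and Unc45a with -0.81, and the median was 0.41. Of 9 nucleotide exchange and BAG factors, 1 was higher, Bag2 with 1.21 (0.66 to 1.81), and none lower, with Stub1 at 0.44, Bag6 at -0.64, Bag3 at -0.88 and a median of -0.12. In fibre-low barcodes none was higher and 1 lower, with Bag2 at 0.62 (-0.18 to 1.53) and Bag3, which pairs with HSP70 under stress, at -1.31 (-1.63 to -0.98). Of the 5 other HSP70 and HSP110 genes compared, from a list of 8, none was higher and 1 lower, Hspa2 with -2.26 (-2.84 to -1.67). Hspa13 stood at -0.66, Hspa14 at 0.36 and Hspa4 at 0.64, and the median was 0.18. Of 14 other HSP40 genes, 3 were higher and 2 lower, with a median of -0.06. Dnajc2, which works at the ribosome, had 2.13 (1.57 to 2.76) and Dnaja4 1.31 (0.84 to 1.81), the latter 0.28 (-0.50 to 1.17) in fibre-low barcodes, while Dnajb14 had -1.57 (-2.03 to -1.10) and Dnajb4 -1.03 (-1.30 to -0.75). The third that was higher, named after its value was seen, was Dnajc9 with 1.11.

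Partners of the ER pair lay on both sides. Of 14 ER chaperones and folding enzymes compared, from a list of 16, 2 were higher, Sdf2l1 with 2.06 (1.24 to 3.03) on 12 QSC UMIs and Manf with 1.23 (0.94 to 1.55), and 3 lower, Pdia3 with -1.52 (-1.78 to -1.25), Dnajb9 with -1.23 (-1.50 to -0.96) and, named after its value was seen, Pdia4 with -1.23. The median was 0.04. Of 6 unfolded protein response genes compared, from a list of 10, 4 were lower and none higher, with a median of -1.18. Ppp1r15a, which ends the translation block of stress, had -2.54 (-2.67 to -2.41) and Herpud1 -1.97 (-2.20 to -1.73). Ddit3 had 0.50 and Atf4 0.78, or -0.21 (-0.77 to 0.41) and 0.57 (0.33 to 0.82) in fibre-low barcodes. The other 2 past 2-fold, named after their values were seen, were Xbp1 and Atf6, both with -1.17. The intervals of the heat shock factor genes held 0. Hsf1 stood at 43.0 CPM in QSCs and 32.5 CPM in ASCs, with a log2 ratio of -0.41 (-0.84 to 0.06), and Hsf2 at 31.0 and 28.0 CPM, with -0.15 (-0.65 to 0.40). Hsf4 had 3 QSC and 41 ASC UMIs, with a log2 ratio of 0.84 (-0.81 to 3.17), and Hsf5 had 0 and 1. Of the early-response genes, 10 of 12 were lower and none higher, with a median of -2.73, -4.42 for Fosb, -3.41 for Egr1, -0.85 for Atf3 and -0.44 for Ier3. Of the 16 cell cycle genes compared, from a list of 17, 14 were higher and none lower, with a median of 3.46, 0.55 for Mcm4 and 0.92 for Pcna. Ccnb1 and Ccnb2 had 0 QSC UMIs and were at least 13.2-fold and 16.6-fold higher in ASCs, against a floor of 3 UMIs in the library.

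Genes with a pattern most like each group were looked for over 8 points, the classes of barcodes with at least 30 barcodes (fibre-low ASCs by their 3 parts), by the Pearson correlation of log2(CPM + 10) among 2949 genes with at least 100 CPM in 1 class. For the inducible group these were Anxa5 (r = 0.97), Phlda1, Slc38a2, Rbms1 and Runx1 (r = 0.95). For the steadily expressed cytosolic group they included Nudt21 (r = 0.995), Hnrnpc and Eif3d (r = 0.98). For the ER group they were Ywhaz (r = 0.99), Dstn, Wsb1, Ctsl and Anxa5 (r = 0.97). The points share 2 libraries, and the values are descriptions.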

How the data were processed

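The authors sorted the cells and made 1 droplet-based 3' library for each group. The deposited matrices hold raw UMI counts per gene and barcode, with no normalization. The file headers name Cell Ranger 6.0.2, and the submitters' processing notes name Cell Ranger 7.1.0, Seurat 4.1.0, R 4.1.2 and the build mm10. The handling of strand is not given in the sources used here, and whether antisense reads entered the counts where exons overlap was not tested.

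Members and gene lists were chosen with earlier results of these data known. Counts were summed over the barcodes of a class and expressed as CPM (scaled to 1e+06 UMIs), with exact Poisson intervals for levels, exact conditional binomial intervals for ratios and Clopper-Pearson intervals for shares. Intervals and floors (3 counts, or 2.58 CPM in the QSC and 0.337 CPM in the ASC library) cover counting error only, and barcodes are not replicates. No doublets were removed. To compare shares of barcodes with a UMI across depths, each barcode was thinned to 1200 UMIs, leaving out shallower ones. A feature entered a comparison with a mean of at least 10 CPM over the compared groups. All members were named, and from each other list the 2 highest and 2 lowest ratios, with the heat shock factors in full. The interval of the ratio was tried on simulated Poisson counts, the setting for which it is made. That trial cannot show how the interval holds where counts vary more between barcodes. Alternatives were the mitochondrial limit, the gene minimum, the scaling (edgeR 4.0.16 and DESeq2 1.42.0 in R 4.3.3, for scaling factors only), the weighting of barcodes, the borders, the thinning and the filter. Leaving out haemoglobin-rich barcodes and the shared range of depth were chosen after seeing the data. Of the features, 32235 (99.8%) had an identifier in GENCODE M21 (GRCm38), the source of gene coordinates, which are 1-based. Python 3.11.15, numpy 2.4.6, scipy 1.17.1, pandas 2.3.3 and matplotlib 3.10.9 were used. Not every gene that the rule on like patterns names is reported here.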

Additional observations from a re-analysis of the deposited data

Results flagged for a closer look

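Some results went opposite ways in different classes of barcodes, and these differences were not tested, since each group was 1 library. The log2 ratio of ASCs over QSCs for Hspa1a was lower by 2.86 in fibre-low than in fibre-high barcodes (a difference of -2.86), with -0.38 in the former and 2.47 in the latter, the latter on 2 QSC UMIs. For Dnaja1 the same difference was -2.03, with -0.55 and 1.49, the latter on 7 QSC UMIs. Over fibre-low QSCs, Hspa1a was higher in Myog-low ASCs and lower in cycling ASCs, and these log2 ratios of 0.95 and -1.37 differed by 2.33.

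The barcodes that the filter left out, 250 of the QSC and 182 of the ASC library, also held chaperone transcripts. The 10 members summed to 2191 CPM in the left-out QSC barcodes and 3768 CPM in the left-out ASC barcodes, against 5049 and 7127 CPM in the kept barcodes.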

How the results depend on the processing

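Of 250 log2 ratios of members recomputed under the alternatives, 179 stayed within the counting interval of the reported value and 61 moved past it. Another 10, all with a reported interval that excluded 0, turned. A change of sign where that interval held 0 was not counted as a turn. In all kept barcodes, the 1% mitochondrial limit left 86 QSC and 948 ASC barcodes, of which 85 and 875 were fibre-high, and turned Hspa1a to 3.58, Hspa5 to 1.24, Hsp90b1 to 1.59, Dnaja1 to 0.89 and Dnajb1 to 1.26, with 6 members at least 2-fold higher and 0 lower. TMM and DESeq2 scaling turned Hsp90b1 to 0.048 and 0.058 and gave 4 members higher and 1 lower. With equal weight per barcode 0 members were at least 2-fold higher, and without the 5% deepest barcodes 1 was. The median of the members turned to -0.10 with at least 1000 genes, -0.15 with equal weight per barcode and -0.028 without the 5% deepest barcodes. In fibre-low barcodes, the 1% limit left 1 QSC and 48 ASC barcodes, with -0.20 for Hsp90aa1, -0.76 for Hspa8, 0 members higher, 1 lower and a median of -0.76, all on that single QSC barcode. TMM and DESeq2 scaling each gave 1 member at least 2-fold lower. Equal weight per barcode turned Hspa1a to 0.60 and gave 0 members lower. Another 43 of 48 list counts stayed within 1.5 times. Shares of barcodes with a UMI moved with the thinning in 38 of 40 recomputed values. The cause of these changes was not tested. No paired analysis was possible because each group had 1 library, so the groups shared fewer than 2 replicate numbers. With 1 library a group, no library could be left out. Depth limits Hspa1b and Hsph1 most, with 8 and 29 UMIs in the QSC library.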
